A study of Mus musculus with 7 samples.

Results

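CTCF and Rad21 binding was examined around 40 imprinted genes of the mouse outside the H19 locus, in livers of untreated male CD-1 (Crl:CD1(ICR)) mice aged 8 weeks. The members were taken as a fixed list of gene names. A site belonged to the set when its whole interval lay in the span of a member gene extended by 20 kb on each side, in genome build mm9. The annotation used here held 39 of the 40 genes, and 1 (Kcnq1ot1, an antisense RNA transcribed from within Kcnq1) was skipped, so that its sites were counted with Kcnq1. Windows that touched were merged into 26 loci of 3.63 Mb in all. These held 150 of the 76683 CTCF peaks and 123 of the 67369 Rad21 peaks of the deposited lists. The CTCF list was pooled from 4 chromatin immunoprecipitation (ChIP-seq) libraries and the Rad21 list from 3, made from crosslinked nuclei of whole liver, so hepatocytes and the other liver cells were measured together. No spread between livers can be given for any value, and no test over livers was possible. CD-1 is an outbred strain and the lists carry no allele, so whether a site was bound on the maternal or the paternal chromosome was not measured.

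An imprinted gene is expressed mainly from the copy of one parent, in some tissues or in all. The choice is set in the germ line by DNA methylation of one parental copy of a control region, which often overlaps the promoter of a gene or of a long noncoding RNA. CTCF is a zinc finger protein whose binding can be blocked by methylation of CpG dinucleotides within its motif, and it can act as an insulator between enhancers and promoters. Cohesin, of which Rad21 is a subunit, extrudes loops of chromatin and is halted at CTCF sites, mostly where the motif points into the loop.

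Binding in the member windows was uneven, from loci with CTCF sites near the top of the whole list to loci with no peak. The strongest CTCF peaks lay in Kcnk9, at the start of Copg2 and upstream of Dlk1, with scores of 7893, 7780 and 6958, at percentiles 98.5, 98.5 and 98.1 of all CTCF peaks. The score is 10 times the −log10 of the q-value of a peak, and its median over all CTCF peaks was 321. Zdbf2 and Usp29 had no peak of either protein, Snrpn had 1 weak CTCF peak in 197.718 kb, and Slc22a2 and Ascl2 had 1 weak CTCF peak each and no Rad21 peak. In the Kcnq1 domain the strongest Rad21 peak of the set, with a score of 8925, lay at 1 edge of a stretch of 310.0 kb where no CTCF peak passed a score of 94.

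As a group the members were close to the whole list. The merged loci held 4.13 CTCF peaks per 100 kb, against 4.47 in the merged windows of all protein-coding genes and 2.89 over the genome. For Rad21 the values were 3.38, 3.89 and 2.54 per 100 kb. The median CTCF score was 330 in the member windows, with quartiles of 95.5 and 1774, and the quartiles of all CTCF peaks were 100 and 1517. A CTCF peak lay in the window of 36 of 39 members, or 92.3% (95% Wilson interval 79.7 to 97.3), beside 83.0% of protein-coding genes. Member windows were longer, with a median of 70.7 kb against 55.4 kb. Within 1 kb of an own start, 22 of 39 members had a CTCF peak, 56.4% (41.0 to 70.7) beside 56.3% of protein-coding genes, and 18 had a Rad21 peak, 46.2% (31.6 to 61.4) beside 53.4%. Intervals cover counting error only, and neighbouring members share windows and sites.

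**Figure D1:**
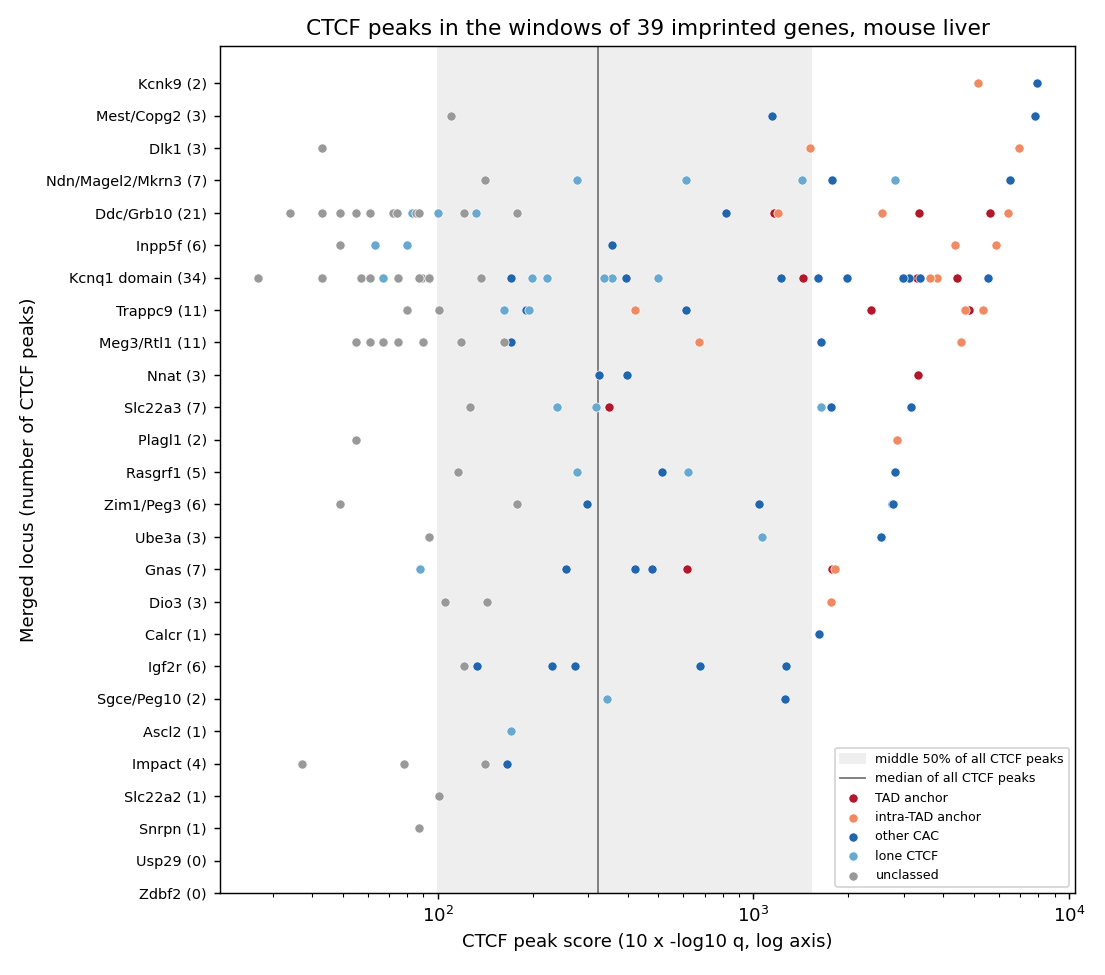
Score of every CTCF peak (x axis, 10 times the −log10 of q, log axis) in the 26 merged loci of the members (y axis, with the number of CTCF peaks), coloured by the class of the site. The grey band and line give the quartiles and the median of all CTCF peaks. Scores ran from 27 to 7893, and Kcnk9, Mest/Copg2 and Dlk1 had the highest.

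The motif matches at the strongest sites are shown because their strand and their CpG content bear on loop direction and on methylation. Each sequence was read from the mm9 reference in the direction of the motif, 5′ to 3′, with the 19-base match to the CTCF matrix in capitals and 5 bases on each side in lower case. The match at Kcnk9 lies at chr15:72347657-72347675 (minus strand), that at Copg2 at chr6:30846574-30846592 (minus), that upstream of Dlk1 at chr12:110676114-110676132 (plus) and that between Magel2 and Mkrn3 at chr7:69545171-69545189 (minus).
Kcnk9 intron: cagatCACCCGCCAGAGGGCACCCttgca
Copg2 start: agccaCCTGCTCTGGGGGGCGGCCgcagc
Dlk1 upstream: gagacCCGCCGGCAGGGGGCGCAGccagc
Magel2-Mkrn3: aatatTGACCACCAGAGGGCGGACgagga
The next group holds 2 sites of Grb10, at chr11:11873606-11873624 (minus) and, near an internal start, chr11:11925865-11925883 (plus). It also holds the Trappc9 site at chr15:72640513-72640531 (minus) and the Peg3 site with the highest score, at chr7:6680112-6680130 (minus).
Grb10 intron: agggaCTGCCACCAGGGGTCGGCAcagcc
Grb10 internal start: agactTCGCCACACGGGGTCGCTGcgtgc
Trappc9 intron: gttccTACCCGGTAGAGGGCGCCGcagaa
Peg3 intron: tttgtTGGCCACAAGGGGGCATCTggtat
The last pair lies in Meg3 exons and flanks an internal start of Meg3 in the annotation, at chr12:110780377-110780395 (plus) and chr12:110781246-110781264 (minus). The first of them was added to the set after its values were seen.
Meg3 internal start, plus strand: attgaTGGCCGCAAGAGGGCGCTGgtggc
Meg3 internal start, minus strand: catagAGACCGCTAGGGGGCGCGCggccc

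A CpG lay within the match at 42 of 84 motif sites of the members (95% Wilson interval 39.5 to 60.5%), beside 44.4% over all listed motif sites. At least 3 CpGs lay in 5 of the 84 matches, 5.95% (2.57 to 13.2), beside 4.63%. Among these 5 were the sites upstream of Dlk1, in a Meg3 exon, at the internal start of Grb10 and in Trappc9, with CTCF scores of 6958, 4542, 5613 and 5322. The fifth lay at Gnas and was weak, with a score of 255 and 4 CpGs. Neither share can be set apart from the whole list at this number of sites.

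The authors placed CTCF sites found in at least 2 livers into classes, namely anchors of topologically associating domains (TADs) and anchors of the shorter loops they predicted inside them (intra-TAD anchors). Other CAC sites are those where cohesin and CTCF met without being called an anchor, and lone CTCF sites are those where the study found no cohesin peak in its own liver samples. Of the 150 member peaks, 48 (32.0%, 25.1 to 39.8) were not in that list, beside 31.6% of all CTCF peaks. Of the 102 listed member sites, 13 were TAD anchors (12.7%, 7.6 to 20.6), beside 11.2% of the whole list. Intra-TAD anchors were 20 (19.6%, 13.1 to 28.4), beside 17.3%. Anchors of either kind were thus 32.4% (24.1 to 41.9), beside 28.4%. Other CAC sites were 42 (41.2%, 32.1 to 50.9), beside 51.4%, which lies just outside the interval. Lone CTCF sites were 27 (26.5%, 18.9 to 35.8), beside 20.1%. A motif was listed at 84 of the 102 sites (82.4%, 73.8 to 88.5), beside 82.6%. An anchor lay in the window of 20 of 39 members (51.3%, 36.2 to 66.1), beside 49.7% of protein-coding genes. Without the flank the count was 8 members. The share of protein-coding genes without the flank was not computed, so this count cannot be set beside 49.7%.

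Cohesin was present at 95 of the 150 CTCF peaks, where a Rad21 peak shared at least 1 base. That is 63.3% (55.4 to 70.6), beside 67.3% of all CTCF peaks. The share calculated for peaks with a score of at least 100, 74.6%, is not a whole count of the 112 member peaks left. It is therefore not compared with the 64.4% of the whole list. Conversely, 27 of the 123 Rad21 peaks (22.0%, 15.5 to 30.1) had no CTCF peak, beside 22.7% of all Rad21 peaks. The class and the overlap used here differ at some sites. Of the 27 lone CTCF sites 5 overlapped a pooled Rad21 peak, while 2 of the 13 TAD anchors and 1 of the 20 intra-TAD anchors did not. A flag for a public peak of Stag1 or Stag2, which are cohesin subunits too, was set at 21 of the 27 lone sites (77.8%, 59.2 to 89.4), beside 60.1% of all lone sites. The flag for topoisomerase Top2b, which came from public data, was set at 50 of 102 member sites (49.0%, 39.5 to 58.6), beside 54.8%. The motif lay on the minus strand at 50 of 84 sites (59.5%, 48.8 to 69.4), beside 50.1%.

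**Figure D2:**
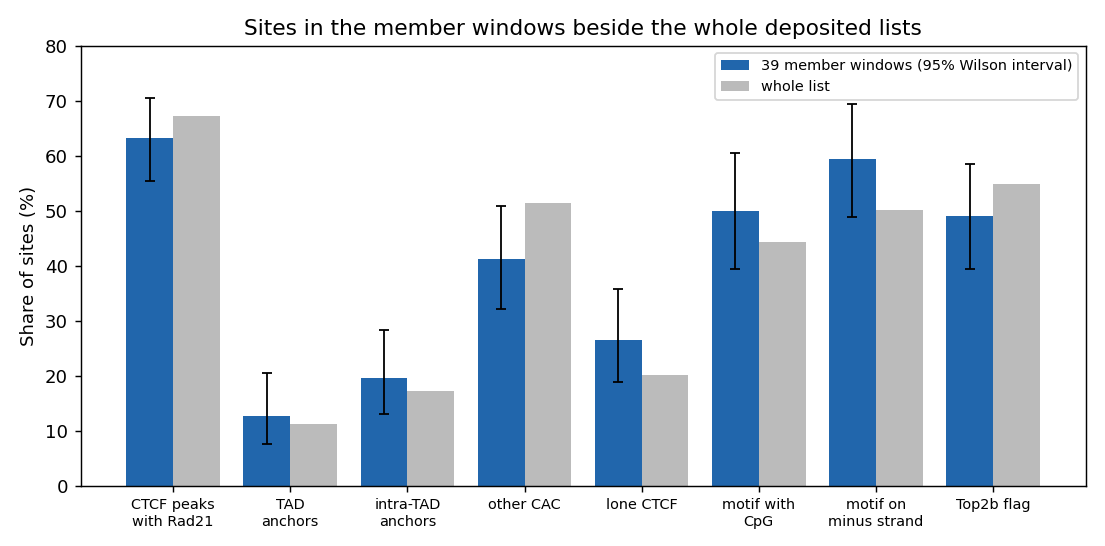
Share of sites in percent (y axis) in the member windows (blue, with 95% Wilson intervals that cover counting error) and in the whole deposited lists (grey) for 8 properties. The whole-list value lies within the interval for all of them, with all peaks used, except other CAC sites, at 41.2% in the members and 51.4% in the whole list.

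The Kcnq1 domain on chromosome 7 carried the largest number of sites. It holds Cd81, a tetraspanin, Tssc4, Kcnq1, a potassium channel, Cdkn1c, an inhibitor of cyclin-dependent kinases, Slc22a18, a transporter, Phlda2, which restrains placental growth, and Nap1l4, a histone chaperone. Its 536.354 kb held 34 CTCF peaks, 22 of them with Rad21, and 31 Rad21 peaks. The strong sites stood in groups, from Cd81 to the first part of Kcnq1 and again beyond its end. The highest CTCF peak, in a Kcnq1 intron, had a score of 5519 and 628 fragments at the summit (95% Poisson interval 580 to 679), which places it at rank 2667 of all CTCF peaks. Rad21 at the same site had a score of 8925 and 899 fragments (841 to 960), at rank 20 of all Rad21 peaks. This was the highest Rad21 value of the member windows, at a site classed as other CAC and not as an anchor.

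Upstream of Cdkn1c 3 strong sites followed each other, all with the motif on the minus strand. Their CTCF scores were 2969, 3374 and 4428, with 443, 539 and 586 fragments, and their Rad21 counts were 324, 381 and 129 fragments. The site with the most CTCF of the 3 had the least Rad21 and was the TAD anchor. The motif of the Kcnq1 intron site lies on the plus strand, so this site and the 3 sites upstream of Cdkn1c point towards each other across 310.0 kb. In an intron of Slc22a18 a further TAD anchor with the motif on the plus strand had a CTCF score of 3290 and 416 fragments (377 to 458), and pointed away from them. Upstream of Phlda2 lay 2 intra-TAD anchors on the minus strand, with scores of 3627 and 3091. No CTCF peak lay within 1 kb of the start of Cdkn1c.

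Between the Kcnq1 intron site and the sites upstream of Cdkn1c, 9 CTCF peaks were called, with scores of 27 to 94 and 18 to 29 fragments. Of these 9, 1 had a listed motif. Rad21 had 14 peaks there with scores of 36 to 496, and 6 of the CTCF peaks carried one. The highest of these Rad21 peaks, with 81 fragments, met a CTCF peak of 24 fragments. The start of Kcnq1ot1, the noncoding RNA whose promoter is the germline control region of the domain, was placed at chr7:150482452 (minus strand) by the single exact match of its RefSeq promoter sequence to mm9. A CTCF peak with a score of 89 and 29 fragments (19.4 to 41.6) lay 64 bp downstream of it, with 14 CpGs in the 201 bp around the summit and no place in the class list. The Rad21 peak there had a score of 264 and 64 fragments.

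**Figure D3:**
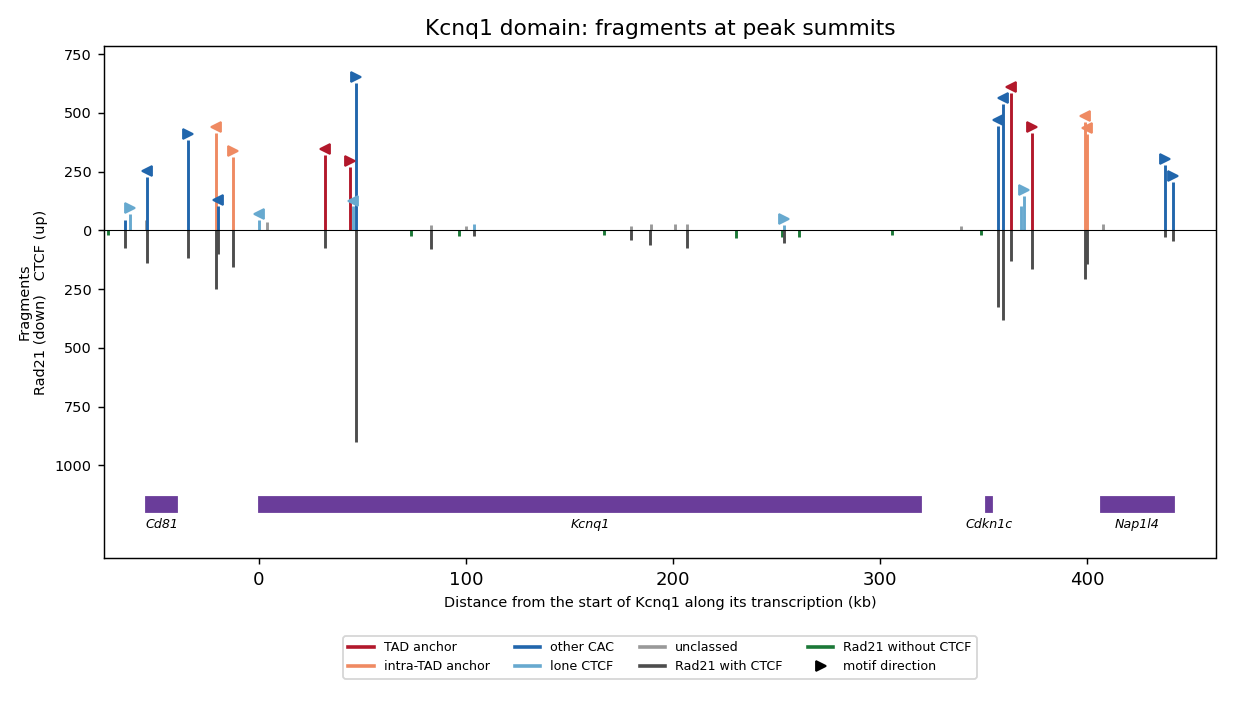
Fragments at the peak summit in the Kcnq1 domain for CTCF (up, coloured by class) and Rad21 (down, dark with CTCF and green without), against the distance in kb from the start of Kcnq1. Arrowheads give the direction of listed motifs and bars below mark Cd81, Kcnq1, Cdkn1c and Nap1l4. The Kcnq1 intron site, with 628 CTCF and 899 Rad21 fragments, and the 3 sites upstream of Cdkn1c point towards each other across a stretch with CTCF counts of 18 to 29.

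Dlk1, a ligand-like membrane protein, Rtl1, a retrotransposon-derived placental gene, and Dio3, the enzyme that inactivates thyroid hormone, are expressed from the paternal copy of a domain on chromosome 12, and the noncoding RNA Meg3 from the maternal copy. The CTCF peak at chr12:110675887-110676367, 14899 bp upstream of the Dlk1 start, had a score of 6958 and 720 fragments (668 to 775), with 280 Rad21 fragments. A second intra-TAD anchor, 16407 bp upstream, had 266 CTCF and 231 Rad21 fragments, and both motifs lie on the plus strand. An internal start of Meg3, downstream of the start of the gene, was flanked by the pair of sites printed above, whose motifs point towards each other. The site 121 bp upstream of this internal start had a CTCF score of 1631 and 253 fragments (223 to 286) with 71 Rad21 fragments. The site 742 bp downstream of it, an intra-TAD anchor, had a score of 4542 and 496 fragments (453 to 542) with 244 Rad21 fragments.

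Meg3/Rtl1 was the locus with the most CTCF peaks per 100 kb, 11.1, but 7 of its 11 peaks were outside the class list. These included 3 weak peaks at 12687, 9314 and 7471 bp upstream of the outermost start of Meg3, with 29, 29 and 34 CTCF fragments and 22, 38 and 34 Rad21 fragments. The one at 12687 bp had 18 CpGs in 201 bp. The highest-scoring Rad21 peak without CTCF of all member windows lay further upstream, at chr12:110759675-110760146 and 19395 bp from that start, with a score of 307 and 55 fragments (41.4 to 71.6). At Dio3 an intra-TAD anchor with a score of 1763 and 233 fragments and a weak peak 140 bp upstream of the start, with a score of 143 and 59 fragments, both carried Rad21.

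Grb10, an adaptor that restrains insulin and growth factor signalling, and its neighbour Ddc, aromatic amino acid decarboxylase, shared 21 CTCF peaks, of which 12 met Rad21. The strongest, at chr11:11873346-11873808 in a Grb10 intron, was an intra-TAD anchor with a score of 6416 and 675 CTCF fragments (625 to 728). It had 651 Rad21 fragments (602 to 703), with a Rad21 score of 5944 at rank 174 of all Rad21 peaks. About the same number of fragments of both proteins was thus counted at this summit. A TAD anchor next to it on the same strand had 225 CTCF and 263 Rad21 fragments. The CTCF peak 492 bp downstream of an internal Grb10 start, chr11:11925517-11926135, was a TAD anchor with a score of 5613 and 539 fragments (494 to 586) but 168 Rad21 fragments, and had 16 CpGs in 201 bp around the summit. Its motif points away from the other pair. A CTCF peak 147 bp downstream of another internal start of Grb10 had a score of 74 and 26 fragments, with 26 CpGs in 201 bp and no Rad21 peak. Further weak peaks at Grb10 starts had scores of 100 and 49, and the former met a Rad21 peak of 64 fragments.

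Igf2r clears insulin-like growth factor 2 from the cell surface, and its silencing on the paternal copy depends on the noncoding RNA Airn, which starts in an Igf2r intron within the germline control region. All 6 CTCF peaks of the window carried Rad21, none was an anchor, and the highest score was 1266 with 164 fragments (140 to 191). A CTCF peak without a motif lay 11 bp upstream of the Airn start, chr17:12934069-12934404, with a score of 272 and 54 fragments (40.6 to 70.5) and with 35 Rad21 fragments. At the start of Igf2r itself CTCF had a score of 678 and 107 fragments (87.7 to 129), with 60 Rad21 fragments, a motif score of 8.64 and 31 CpGs in 201 bp, the most of any member CTCF peak. Of the 13 Rad21 peaks of this window, 7 had no CTCF, where the share over all Rad21 peaks was 22.7%. Among these were peaks with scores of 50, 68 and 71 near Igf2r starts, one with a score of 45 near the Airn start, and 2 of the 5 highest-scoring Rad21 peaks without CTCF, with scores of 132 and 100. The organic cation transporter gene Slc22a3 had 7 CTCF peaks, 2 of them with Rad21, and the highest score was 3150 with 327 CTCF and 78 Rad21 fragments. Its neighbour Slc22a2 had 1 peak with a score of 101.

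A region of mouse chromosome 7 is the counterpart of the region deleted in Prader-Willi and Angelman syndromes in humans. CTCF was found there between the small intronless genes and hardly at Snrpn, a splicing protein gene whose start holds the imprinting centre. Ndn and Magel2, of the MAGE family, and Mkrn3, a ring finger gene, shared 7 CTCF peaks and 2 Rad21 peaks. All 6 motif sites lay on the minus strand. The strongest, chr7:69544954-69545423, had a score of 6512 and 583 fragments (537 to 632) with 141 Rad21 fragments. The sites upstream of Mkrn3 had 311 and 191 CTCF fragments with scores of 2803 and 1429 and no Rad21 peak, while a site of 191 CTCF fragments downstream of Magel2 had 116 Rad21 fragments. The lone site with the score of 2803 is the strongest lone CTCF site of the members, and the third quartile of lone sites in the whole list was 380. A lone site with a score of 612 reached within 1 kb of the Magel2 start, and the window of Ndn had no peak. Snrpn had 1 CTCF peak with a score of 87 and 28 fragments, in an intron, and 1 Rad21 peak with a score of 60 and 22 fragments without CTCF near a start. The start of Ube3a, a ubiquitin ligase, had a score of 2541 with 325 CTCF and 63 Rad21 fragments.

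Peg3 and Zim1, zinc finger genes at the other end of chromosome 7, had 6 CTCF peaks, all with Rad21 and none an anchor. In Peg3 the site 2908 bp downstream of the start had a score of 2760 and 382 fragments (345 to 422) but 48 Rad21 fragments. The site 1094 bp downstream had 112 CTCF and 77 Rad21 fragments, and the peak 95 bp downstream, with no motif listed and 16 CpGs in 201 bp, had 90 of each. Another Rad21 peak, with a score of 41 and 33 fragments, lay between the last pair without CTCF. Usp29, a ubiquitin protease gene, had no peak.

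**Figure D4:**
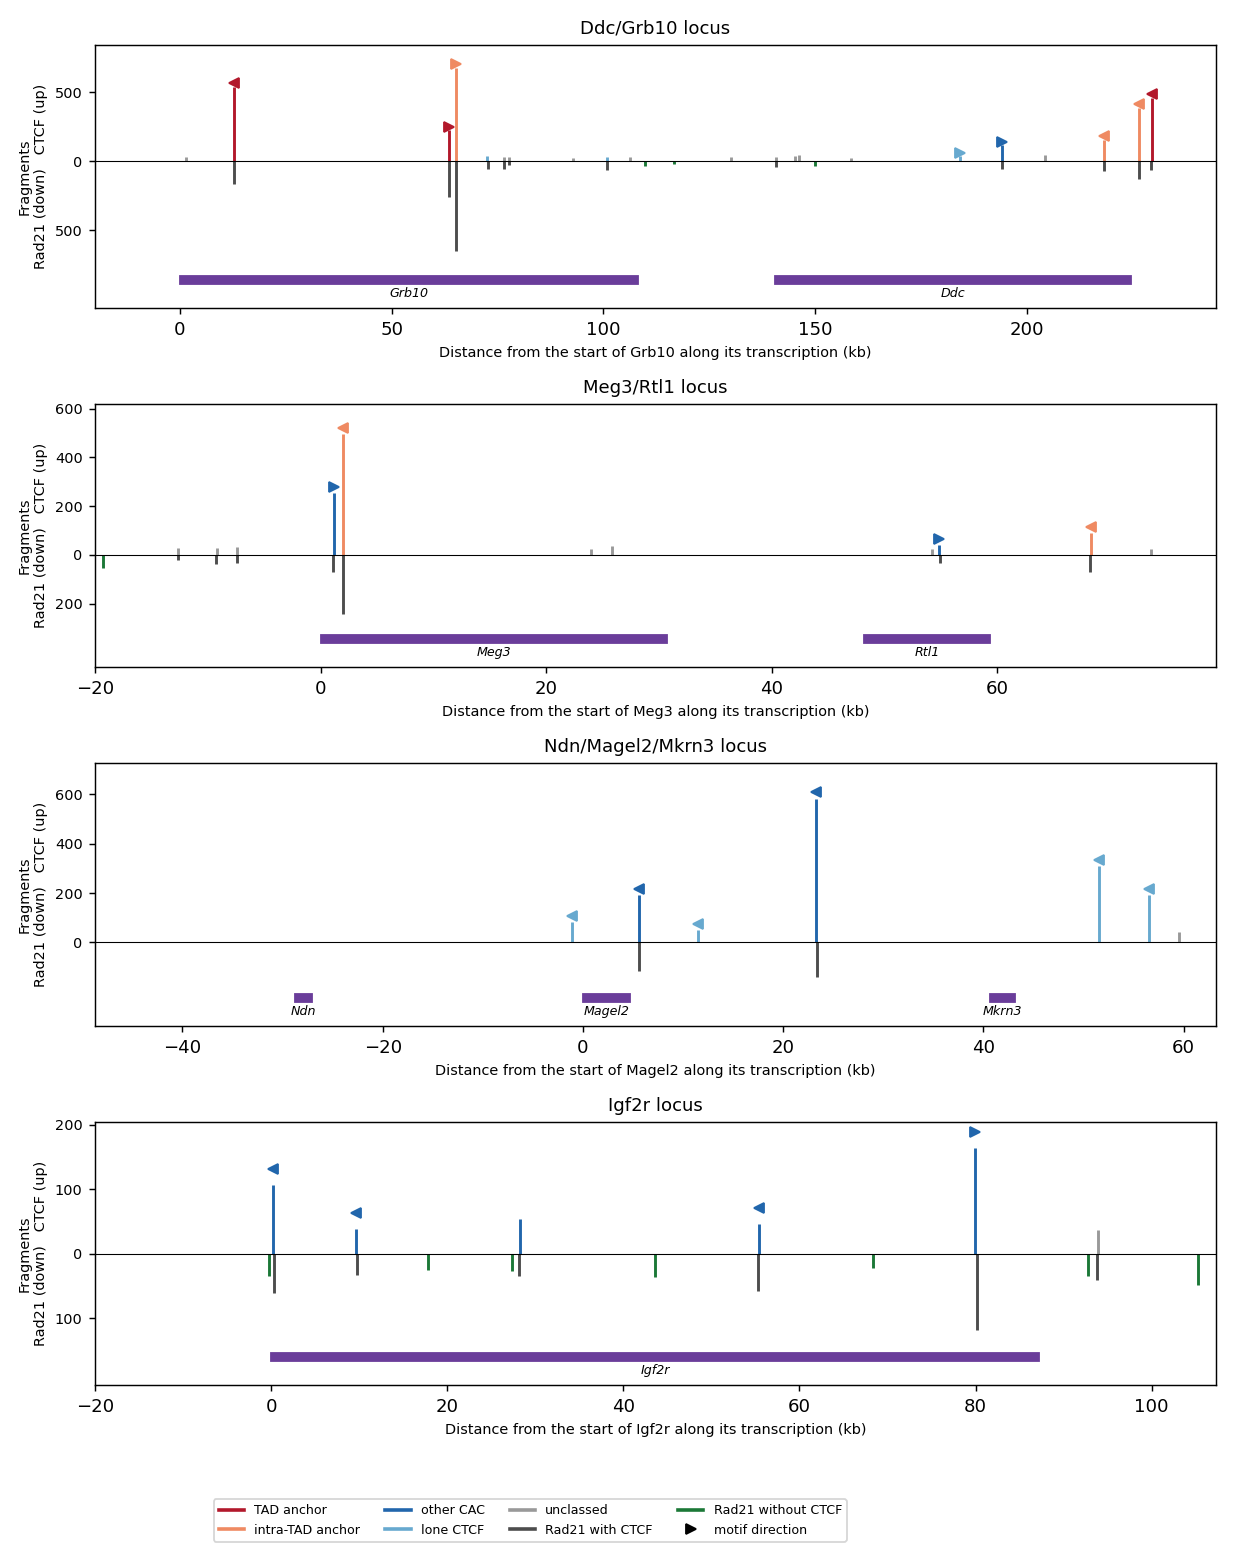
Fragments at the peak summit for CTCF (up, coloured by class) and Rad21 (down, dark with CTCF and green without) in 4 loci, against the distance in kb from the start of Grb10, Meg3, Magel2 or Igf2r along the direction of transcription. Arrowheads give motif direction and each panel has its own y axis. The 6 motifs of Ndn/Magel2/Mkrn3 all point one way, the pair at an internal start of Meg3 points together, and the Igf2r locus has 7 of 13 Rad21 peaks without CTCF, beside 22.7% of all Rad21 peaks.

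On chromosome 6, Mest, a hydrolase-like gene expressed from the paternal copy, and Copg2, a vesicle coat gene that overlaps its end, had 3 CTCF peaks. The one at the Copg2 start, chr6:30846481-30846974, lay 16 bp into the gene with a score of 7780 and 736 fragments (684 to 791), the most fragments of any member CTCF peak. Rad21 was low there, with a score of 129 and 34 fragments, and the motif score was 8.64 where the median of the listed motifs was 16.0. The offset between the CTCF summit and this match, the one printed above, was −111 bp. At Mest, CTCF peaks lay 917 bp upstream and 194 bp downstream of the nearest starts, with scores of 1147 and 110, and with 154 and 42 CTCF against 83 and 34 Rad21 fragments. The latter had 26 CpGs in 201 bp. Peg10, a retrotransposon-derived gene, and Sgce, a sarcoglycan, share a promoter that is a germline control region. A single CTCF peak covered it, chr6:4696968-4697511, with no motif listed, a score of 1263, 164 fragments (140 to 191) and 24 Rad21 fragments. Calcr, the calcitonin receptor, had 1 CTCF peak with a score of 1615, 181 CTCF fragments and 82 Rad21 fragments.

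On chromosome 15, Kcnk9, a potassium channel, and Trappc9, a vesicle transport gene, had 13 CTCF peaks in all. The Kcnk9 intron peak, chr15:72347380-72347896, had the highest CTCF score of the members at 7893, with 716 fragments (665 to 770) and 212 Rad21 fragments, and the site 3291 bp upstream of the Kcnk9 start had a score of 5132 with 485 and 126 fragments. These motifs point away from each other. In Trappc9 5 of the 9 sites in the class list were anchors, where the share over the whole list was 28.4%. One of them, chr15:72640337-72641037, had 590 CTCF fragments (543 to 640) but 78 Rad21 fragments, with the Rad21 summit 234 bp upstream along the motif. The quartiles of such shifts over all motif sites were −7 and 41 bp. A neighbouring peak without a motif had 159 CTCF and 40 Rad21 fragments.

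Among the other genes, Gnas, the stimulatory G protein alpha subunit, had 5 CTCF peaks near its alternative starts, with scores of 88 to 617. A TAD anchor and an intra-TAD anchor deeper in the gene had scores of 1776 and 1810, with 236 and 239 CTCF fragments and 260 and 136 Rad21 fragments. In the window of Nnat, a proteolipid gene within an intron of Blcap, there was no peak within 1 kb of the Nnat start, and a TAD anchor upstream of Blcap had a score of 3311 with 353 CTCF and 252 Rad21 fragments. Inpp5f, a phosphoinositide phosphatase, had intra-TAD anchors with scores of 4364 and 5878 at its end and in the neighbouring gene Mcmbp, and weaker peaks with scores of 357 and 80 at its starts. Plagl1, a zinc finger factor, had 1 strong site 3297 bp upstream of its start, with a score of 2847 and 285 fragments, and no peak within 1 kb of a start. Rasgrf1, an exchange factor for Ras, had 5 peaks with a highest score of 2814. Impact, a regulator of translation, had 4 peaks with scores of at most 165, and Ascl2, a trophoblast factor, had 1 with a score of 170.

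Genes with a promoter that overlaps a germline control region were examined as a list of 15, of which 14 had a start. Every annotated start of these genes was used, so peaks at distant starts of Grb10 and of Gnas were counted together, and not all of them lie at a control region. CTCF lay within 1 kb of a start in 10 of these 14 and Rad21 in 10. No peak was found at Plagl1, Nespas and Nnat, and Snrpn had Rad21 without CTCF. The 19 CTCF peaks ranged in score from 37 at Impact to 5613 at Grb10. Of a further 8 imprinted promoters, CTCF was found at 3, Igf2r, Meg3 and Magel2, and no peak of either protein at 5, Cdkn1c, Ndn, Mkrn3, Zdbf2 and Usp29. The share of all protein-coding genes with CTCF at a start, given above, was 56.3%, and that with Rad21 was 53.4%.

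The ratio of Rad21 to CTCF fragments at shared sites varied widely among the members. Its median was 0.602, with quartiles of 0.342 and 1.0, beside 0.562 with quartiles of 0.342 and 0.889 over all pairs. More Rad21 than CTCF fragments were counted at 23 of 95 member sites (24.2%, 16.7 to 33.7), beside 19.1% of all pairs. The ratio depends on the depth and antibody of each pool, so its place among all pairs is what can be compared. The Kcnq1 intron site had a ratio of 1.43, at percentile 91.6 of all pairs, and the Kcnq1ot1 start 2.21, at percentile 97.9. At the other end, Copg2 had 0.0462 at percentile 0.0872, a Nap1l4 intron site of the Kcnq1 domain 0.107 at percentile 1.55, the Peg3 site 0.126 at percentile 2.51 and the Trappc9 site 0.132 at percentile 2.91. Ratios above 2 were found at weak CTCF peaks of 24 to 30 fragments, for which counting error is large.

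**Figure D5:**
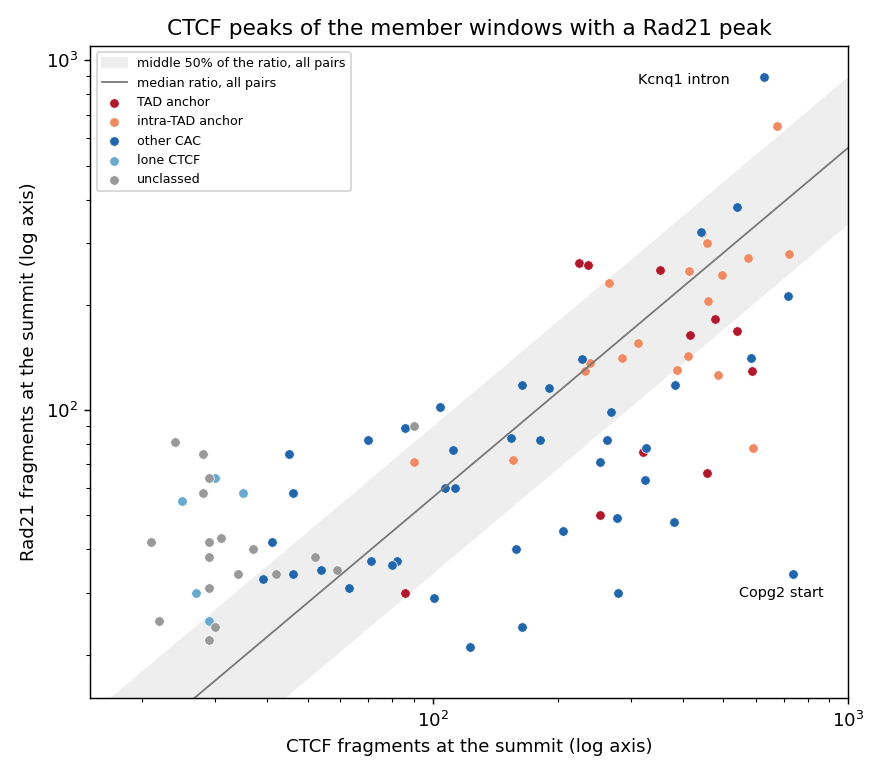
Rad21 fragments (y axis) against CTCF fragments (x axis) at the summits of the 95 member CTCF peaks that share a base with a Rad21 peak, both on log axes and coloured by class. The grey band and line give the quartiles and the median of the ratio over all pairs. The Kcnq1 intron site (628 and 899 fragments) lies above the band and the Copg2 start (736 and 34) far below it.

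A further list held imprinted genes that are not members. Of 29 such genes, 27 were in the annotation, and some of them neighbour or overlap members. A CTCF peak lay in the window of 26 of the 27, an anchor in the window of 16 and a CTCF peak within 1 kb of a start in 17, beside 83.0%, 49.7% and 56.3% of protein-coding genes. Their median was 4.09 CTCF peaks per 100 kb of window, beside 4.92 for the members and 5.63 for all protein-coding genes.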

How the data were processed

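Only pooled lists were used. According to the methods of the study, reads of all libraries of a factor were merged by the authors, mapped to mm9 with Bowtie2 and limited to uniquely mapped reads. They called peaks with MACS2 and removed blacklisted regions and peaks made of duplicates. Each deposited peak has a score (10 times the −log10 of its q-value), a fold ratio of summit pileup over local background, and a −log10 p-value. The class list, with the authors' log-odds motif score and overlap flags, has no header, and its column names follow the study's description.

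Fragments at each summit were recovered from fold and −log10 p, whole within 0.05 at all 150 CTCF and 123 Rad21 member peaks. The depth of each library is unknown. Fragment counts carry exact Poisson and shares Wilson 95% intervals, which cover counting error only, since reads are not independent molecules. Genes came from GENCODE vM1. Motifs were placed with the public matrix in the mm9 sequence, with the same strand as deposited at 43331 of 43337 sites. RefSeq promoter sequences placed genes the annotation lacks.

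No test over samples was possible. Values are given for the strongest CTCF peak of each locus, peaks at imprinted promoters, the 5 highest-scoring Rad21 peaks without CTCF, the densest and emptiest loci and, chosen after values were seen, further sites named beside them. Members and lists were chosen with earlier results of these data known. Alternatives changed the flank, score minimum, overlap rule and distance to starts. Functions were tested on simulated data. The tools were samtools 1.23.1, pysam 0.24.0, pandas 2.3.3, Matplotlib 3.10.9 and SciPy 1.17.1 under Python 3.11.15.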

Additional observations from a re-analysis of the deposited data

How the results depend on the processing

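Of 39 alternative values of the 8 summary results, 30 stayed within the interval of the value given or within 1.5 times the count given. With no flank the windows held 86 CTCF and 69 Rad21 peaks, and 8 members had an anchor. With peaks of a score of at least 100, there were 79 Rad21 peaks and the median CTCF score was 930 (665 in the whole list). The share of CTCF peaks with Rad21 came out at 74.6% under this minimum, which is not a whole count of the 112 peaks left. No order of members and whole list is drawn from this value, although the tally of 30 treats it as moved. With summits within 100 bp the share was 51.3% (55.5% in the whole list), and with a reciprocal overlap of 50% it was 55.3% (58.2%). The mean over loci of the median score was 834. No paired analysis was possible because the lists pool all libraries and no result comes from a test, although libraries of both factors share replicate numbers. Low counts limit the weak peaks: a summit of 29 fragments has an interval of 19.4 to 41.6.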

Other observations

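The 5 highest-scoring Rad21 peaks without CTCF in the member windows all lay away from annotated starts, at least 11533 bp from the nearest. Beside the peak upstream of Meg3 and both peaks of the Igf2r window, they were Kcnq1 intron peaks with scores of 126 and 80 and with 33 and 27 fragments. None of the 5 reached the third quartile of all Rad21 peaks, 468. The median score of the 27 Rad21 peaks without CTCF was 60, beside 65 for all such peaks of the whole list.

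Some strong CTCF sites of the members had motif scores near the bottom of the class list. The sites with a CTCF score of 7780 at Copg2, 3351 at Fignl1 in the Ddc window and 2814 in Rasgrf1 had motif scores of 8.64, 8.0 and 7.92, where the lowest of the list was 7.77. These matches did not lie under the summits, with offsets between summit and match of −111, −419 and 124 bp. Whether they were the bound sequences was not tested. In the flank of Zim1, 28971 bp downstream of its nearest annotated start, which is internal, a peak with a score of 2745 and 268 fragments had no listed motif.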
